A study of Mus musculus with 6 samples.

Results

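Long non-coding RNAs are abundant in the testis, and most of those that meiotic cells hold have no described function. The 200 genes described here are the most abundant of them in wild-type pachytene preparations of the mouse: genes that GENCODE M21 (GRCm38) types as lincRNA (between genes) or antisense (overlapping another gene on the other strand), ranked by the mean of both wild-type libraries in FPKM, the mapped fragments of a gene scaled to its exon length and to the size of the library. They were taken from 8390 genes of these types, 5535 lincRNA and 2855 antisense, among 54532 genes in the files, and comprise 130 lincRNA and 70 antisense genes. The genes were chosen by these wild-type values, so the differences of these 200 genes from wild type are descriptions without a test. The difference between the other groups, whose libraries ranked no gene, was tested. All 200 genes passed the filter of a mean of at least 1 FPKM over the 6 libraries.

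RNA was sequenced from pachytene cells of the testis purified by STA-PUT, a sedimentation of cells by size through a gradient, from mice of about postnatal day 80. The 3 groups, each with 2 libraries, are wild type (WT), MAPS-/- (KO) and MAPSEE;MAPS-/- (EE_KO), which carries the MAPS deletion of the KO group together with MAPSEE, an allele or transgene that the labels do not define further. MAPS is a protein of male pachytene cells, and the study asked about the silencing of the sex chromosomes after its loss. Each group used 3 mice of 1 genotype over 2 experiments, and whether a library pools mice is not given, so p-values measure only the spread between libraries, which may be technical.

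During the pachytene stage of male meiosis homologous chromosomes are paired along their length, the X and Y are silenced in the sex body, and transcription of the autosomes rises, with many testis-specific transcripts made for later stages. A-MYB (Mybl1) is a main activator of this programme and binds the sequence known as the MYB motif. Many long non-coding genes start close to a protein-coding gene and run away from it, which is called a divergent pair, and such transcripts are often short-lived targets of the nuclear RNA exosome.

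The sequences before the start sites describe the promoters of part of the set. RefSeq (GRCm38.p6) windows of 300 bases, from 250 before to 50 after the start, matched 118 of the 200 genes, and 105 of these lay within 1000 bases of the GENCODE start. The first 4 sequences are shown for 3 of the 10 most abundant genes (Rbakdn, 1700008K24Rik and 1700020N18Rik) and for Gm35584, 1 side of a divergent pair of 2 members. All 4 hold the MYB motif described below, so they are examples and do not stand for the set. The window of 1700029M20Rik, also among the 10, does not hold it. The next are parts of the windows of Gm13267 and 1110006O24Rik. They run from the start of the protein-coding neighbour on the other strand into the first bases of the gene. The last is the full window of Malat1, whose level was highest in KO. Capitals mark matches to the MYB motif AACTGNC or the TATA box TATAAA on either strand, and all are written 5′ to 3′ on the strand of the gene.
Rbakdn: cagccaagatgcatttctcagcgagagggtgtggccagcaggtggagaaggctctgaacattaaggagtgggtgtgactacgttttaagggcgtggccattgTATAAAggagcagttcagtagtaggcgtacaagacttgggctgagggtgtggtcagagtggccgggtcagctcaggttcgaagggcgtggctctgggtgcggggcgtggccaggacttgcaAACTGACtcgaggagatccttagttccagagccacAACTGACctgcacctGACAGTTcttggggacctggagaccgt
1700008K24Rik: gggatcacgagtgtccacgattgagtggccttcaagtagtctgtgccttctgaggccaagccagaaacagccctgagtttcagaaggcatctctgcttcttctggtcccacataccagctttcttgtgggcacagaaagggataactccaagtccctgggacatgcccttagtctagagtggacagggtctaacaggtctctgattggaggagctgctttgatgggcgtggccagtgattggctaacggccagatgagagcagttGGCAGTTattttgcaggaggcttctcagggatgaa
1700020N18Rik: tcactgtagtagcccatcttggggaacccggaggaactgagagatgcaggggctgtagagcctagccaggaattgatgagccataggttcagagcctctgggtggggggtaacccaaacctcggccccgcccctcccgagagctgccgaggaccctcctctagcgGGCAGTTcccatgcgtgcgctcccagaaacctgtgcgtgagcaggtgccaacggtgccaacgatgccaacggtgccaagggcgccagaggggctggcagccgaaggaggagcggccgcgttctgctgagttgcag
Gm35584: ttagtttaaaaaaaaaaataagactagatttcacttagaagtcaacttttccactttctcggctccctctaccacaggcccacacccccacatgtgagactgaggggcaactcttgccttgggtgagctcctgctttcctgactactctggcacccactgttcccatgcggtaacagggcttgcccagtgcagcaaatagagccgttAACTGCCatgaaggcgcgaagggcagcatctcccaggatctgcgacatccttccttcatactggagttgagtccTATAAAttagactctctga
Gm13267: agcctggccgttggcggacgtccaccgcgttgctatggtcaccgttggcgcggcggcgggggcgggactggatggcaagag
1110006O24Rik: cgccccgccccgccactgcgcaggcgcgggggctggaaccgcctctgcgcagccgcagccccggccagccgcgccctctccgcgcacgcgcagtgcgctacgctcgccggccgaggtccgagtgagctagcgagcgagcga
Malat1: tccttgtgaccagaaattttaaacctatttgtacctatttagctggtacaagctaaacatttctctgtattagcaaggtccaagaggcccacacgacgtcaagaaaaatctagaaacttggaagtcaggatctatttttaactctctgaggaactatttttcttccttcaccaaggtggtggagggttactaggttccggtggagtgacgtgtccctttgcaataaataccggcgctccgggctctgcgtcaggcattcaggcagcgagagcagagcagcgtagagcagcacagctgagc

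The Rbakdn window (chr5:143165702-143166001, minus strand) held 3 MYB matches and 1 TATA match. The windows of 1700008K24Rik (chr17:49113484-49113783, minus strand) and 1700020N18Rik (chr1:91405980-91406279, minus strand) held 1 MYB match each, and that of Gm35584 (chr3:68761245-68761544, plus strand) held 1 MYB and 1 TATA match. Neither the 81 bases around the start of Gm13267 (chr2:5895433-5895513, plus strand), the 141 bases around the start of 1110006O24Rik (chr5:115631767-115631907, minus strand) nor the Malat1 window (chr19:5802623-5802922, minus strand) held these letters. Over the 105 windows, 37 (35.2%) held the MYB motif, beside 12.8% of all 32851 windows of that length. The cAMP response element TGACGTCA, which reads the same on both strands, was in 3.81% of the windows beside 1.79% of all. The X-box half-site GTTGCCA, part of the site of RFX factors, was in 8.57% beside 4.38%, and TATAAA in 16.2% beside 13.6%. Overlaps between motifs were allowed, and a match describes letters and not binding. The median GC content was 52.7% in these windows and in all windows, and the median number of CpG dinucleotides was 9 beside 7.

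The libraries held 14178387 to 16565238 reads on genes, recovered from the deposited FPKM. The gene 1700102P08Rik, taken here for MAPS, was at 157 and 150 FPKM in WT, 7.97 and 10.1 in KO and 109 and 82.2 in EE_KO. Most marker levels in the KO libraries went against their cell type label. The summed level of 12 pachytene markers was 6673 and 6009 FPKM in WT, 237 and 285 in KO and 5758 and 6164 in EE_KO, with all 12 lower in KO than in WT. Sycp3, which fell the least of the 12, was at 74.0 and 72.8 FPKM in WT, 42.4 and 54.9 in KO and 71.9 and 75.8 in EE_KO. The 10 Sertoli markers summed to 243 and 239 FPKM in WT, 3534 and 3276 in KO and 401 and 215 in EE_KO, and the 9 Leydig markers to 63.0 and 115, 2347 and 2236, and 187 and 88.9. All 10 Sertoli, all 9 Leydig and all 8 tested of 10 spermatogonial markers were higher in KO. The spermatogonial marker Gfra1, too low to be tested, went the other way. It was at 0.926 and 1.23 FPKM in WT, 0.518 and 0.347 in KO and 0.773 and 0.708 in EE_KO. No marker of these lists was at 0 in every library. These markers move with every difference that involves KO below, and their part in those differences was not tested. In such bulk samples, fewer cells of a type and less RNA per cell cannot be told apart.

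In WT the 200 genes held 2.79% ± 0.163 (SD, n = 2) of all FPKM, in KO 0.242% ± 0.0476 (n = 2) and in EE_KO 2.42% ± 0.0652 (n = 2). The EE_KO share was 2.18 percentage points above that of KO, with no overlap, and the exact two-sided permutation p of 0.333 is the smallest that 2 libraries against 2 allow. Of the FPKM of all lincRNA and antisense genes, the 200 held 60.2% and 56.7% in WT, 17.8% and 20.1% in KO and 56.0% and 56.4% in EE_KO. Their WT means ran from 13.8 to 870 FPKM with a median of 24.9. Of the 200, 15 had at least 100 FPKM, 60 had 30 to 100 and 125 had under 30. The choice ended between 4933406P04Rik at rank 200 and Gm11592 at rank 201, whose WT means were 13.8 and 13.6 FPKM. Gm12925, the next member inside, had 13.8 and 4930533D04Rik, the next gene outside, had 13.6. The median exon length was 955 bases, beside 992.5 for all genes of these types, and 20 members (10%) had a single exon, beside 6.47% of all.

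Rbakdn (ENSMUSG00000104529, chromosome 5) had the highest level, with 915 and 826 FPKM in WT, 11.4 and 20.1 in KO and 682 and 646 in EE_KO. Its promoter, with the 3 MYB matches, is the first sequence above. 1700008K24Rik (chromosome 17) followed with 602 and 538 in WT, 15.2 and 18.4 in KO and 410 and 476 in EE_KO. In both genes every KO library lay far below the WT and EE_KO libraries, and both EE_KO libraries lay below both WT ones. 1700018B24Rik (chromosome 3) stood at 288 and 222 FPKM in WT, 9.29 and 14.1 in KO and 217 and 211 in EE_KO. Gm45027 (chromosome 11) had 172 and 196 in WT, 9.28 and 5.17 in KO and 119 and 106 in EE_KO, but its annotated exons add up to only 78 bases, the shortest of the set, so its FPKM rests on 188 and 231 reads in WT. The other 6 of the 10 highest, Gm11837, 1700029M20Rik, 1700108J01Rik, 1700020N18Rik, C2cd6b and 1700042G15Rik, had WT means of 126 to 181 FPKM, KO means of 2.23 to 9.17 and EE_KO means of 88.6 to 184. The 10 together held 30.3% and 31.1% of the members' FPKM in WT, 12.7% and 13.5% in KO and 29.1% and 28.7% in EE_KO.

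**Figure D1:**
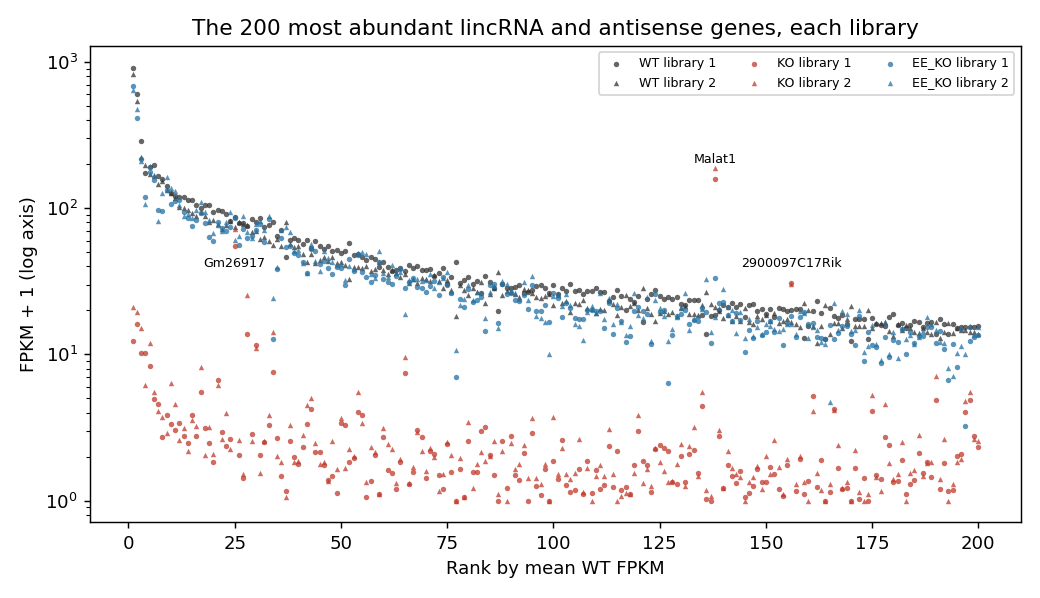
FPKM + 1 (log axis) of each of the 200 genes in the 6 libraries, against rank by WT mean; black is WT, red KO and blue EE_KO, with circles for library 1 and triangles for library 2. The EE_KO points follow the WT points along the ranks, and most KO points lie between 0 and 10 FPKM, with Malat1 and 2900097C17Rik above their WT points.

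Nearly the whole set was low in KO. Between WT and KO, 197 of the 200 genes were at least 2-fold lower in KO on the log2(FPKM + 1) scale, where 37.8% of the 15368 genes tested were. The rule used the WT values, so nothing is read from that comparison of shares. At least 4-fold lower were 192, and at least 16-fold lower 93. The library medians were 26.4 and 23.4 FPKM in WT, 0.795 and 0.871 in KO and 19.97 and 22.6 in EE_KO. The median log2 difference of KO minus WT was -3.92, beside -0.29 for all genes tested, 0.020 for protein-coding genes and -1.56 for the other 1334 lincRNA and antisense genes tested. The log2(FPKM + 1) scale understates the fall of low genes. In FPKM the median KO mean was 2.56% of the WT mean, and 181 genes were under 10% and 32 under 1%. In KO, 113 and 106 members were under 1 FPKM, and the median member had 16 recovered reads in both libraries, beside 471.5 and 445.5 in WT. Both KO libraries lay below both WT libraries in 198 genes, beside 51.8% of all genes, and above them in 2, beside 41.6%. The 70 antisense genes (median -3.75) and the 130 lincRNA genes (median -3.98) had similar medians.

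The 8 with the greatest falls were 4930571K23Rik, Rbakdn, Gm6567, 1700020N18Rik, Gm5922, 4930449C09Rik, 4930469B13Rik and C2cd6b, whose log2 differences of KO minus WT ran from -5.78 to -5.36. 4930571K23Rik, a single-exon gene of chromosome 7, was at 45.1 and 79.3 FPKM in WT, 0.155 and 0.0535 in KO and 53.5 and 73.9 in EE_KO. Its KO values rest on 6 and 2 reads. Gm6567, also on chromosome 7, was at 78.5 and 77.3 in WT, 0.425 and 0.522 in KO and 70.7 and 87.8 in EE_KO. In both genes the WT and EE_KO ranges overlapped and KO stood apart. 4 genes had no read in either KO library, namely 4930558F17Rik, 1700021F13Rik, 1700041C23Rik and 1700016P04Rik. Against a floor of 3 reads per library, their WT means were at least 137-fold, 80.9-fold, 38.0-fold and 40.2-fold higher than KO. With these genes at that bound the median over all 200 was also -3.92.

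A second set was ranked on the EE_KO libraries, with no WT or KO value, and KO against WT was tested on it. EE_KO lay close to WT over all genes, with a median log2 difference of 0.0043. Genes high in EE_KO were therefore mostly high in WT too, and the test is no independent support. Of the 200 genes highest by EE_KO mean, 176 were also among the 200 described here. In limma's moderated test with Benjamini-Hochberg adjustment over all 15368 genes, 194 of them were called lower in KO than in WT and 3 higher, beside 48.1% and 38% of all genes. Of these, 194 were at least 2-fold lower, and the median was -3.83.

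Between KO and EE_KO, whose libraries ranked no member, the set rose almost throughout. Of the 200 genes, 195 were called higher in EE_KO, 2 lower and 3 were not called. Among all 15368 genes 85.6% were called, 47.8% higher and 37.8% lower. The median log2 difference of EE_KO minus KO was 3.65, beside 0.26 for all genes. At least 2-fold higher were 195 genes, beside 36.8% of all, at least 4-fold higher 189 and at least 16-fold higher 67. Both EE_KO libraries lay above both KO libraries in 195 genes, beside 51.7% of all genes, below them in 2, beside 41.8%, and the groups overlapped in 3. Without the 61 members whose exons share bases with another gene's exons, 136 of 139 were higher and 1 was lower. This comparison shares its KO libraries with that against WT, so the 2 are not independent. EE_KO also lay close to WT over all genes, with a median log2 difference of 0.0043. Genes picked for high WT values were therefore mostly high in EE_KO too, and these counts are no support independent of the choice.

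The greatest rises were those of 4930571K23Rik, Gm6567, 4930469B13Rik, C2cd6b, 4933435G04Rik, Rbakdn, 1700003I22Rik and 4930449C09Rik. 4930571K23Rik rose by 5.86 (SE 0.26) on the log2 scale, with a limma adjusted p of 4.62e-07. Gm6567 rose by 5.76 (SE 0.13, limma adjusted p = 6.52e-08), and its EE_KO mean was 167-fold its KO mean. 4933435G04Rik, also on chromosome 7, was at 38.3 and 41.5 FPKM in WT, 0.106 and 0.109 in KO and 41.8 and 50.2 in EE_KO. It rose by 5.40 (SE 0.13, limma adjusted p = 6.56e-08) from 4 reads in each KO library. Rbakdn rose by 5.36 (SE 0.22, limma adjusted p = 3.34e-07). They were picked for the size of these rises.

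**Figure D2:**
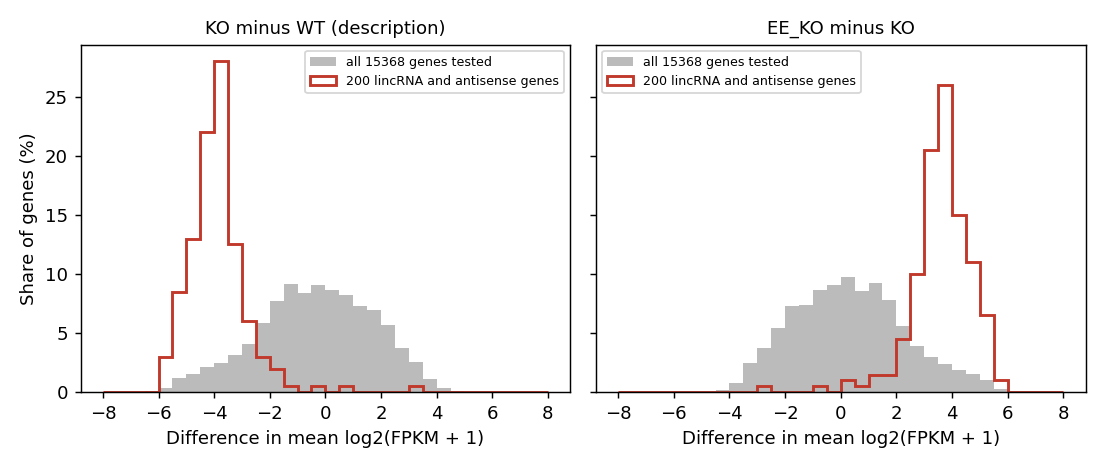
Share of genes (%) by the difference in mean log2(FPKM + 1), in steps of 0.5, for KO minus WT (left) and EE_KO minus KO (right); grey bars are all 15368 genes tested and the red line the 200 genes. The line lies around -3.92 on the left and 3.65 on the right, against -0.29 and 0.26 for all genes, with a few members near 0 or on the other side.

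3 genes resisted the fall, which means that KO was at most 2-fold below WT, and 62.2% of all genes tested did so. Malat1 (ENSMUSG00000092341, chromosome 19), a nuclear RNA of most cell types that gathers in nuclear speckles, was at 17.7 and 20.2 FPKM in WT, 158 and 187 in KO and 32.6 and 17.1 in EE_KO. Both KO libraries were far above the other 4, and WT and EE_KO overlapped. Its log2 difference of KO minus WT was 3.11, and it fell by 2.81 (SE 0.26, limma adjusted p = 1.82e-05) from KO to EE_KO. Malat1 shares exon bases with 2 other annotated genes, whose reads could be split from it differently. The Sertoli and Leydig marker sums given above were also highest in KO. Between the EE_KO libraries both sums were higher in the first, as Malat1 was. Between the KO libraries both sums were higher in the first, but Malat1 was higher in the second. In WT, Malat1 and the Leydig sum were higher in the second library and the Sertoli sum in the first. The part of these cells in the level of Malat1 was not tested.

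2900097C17Rik (ENSMUSG00000102869, chromosome 2), the mouse gene of Norad, a cytoplasmic RNA that binds Pumilio proteins, was at 19.04 and 15.7 FPKM in WT, 29.5 and 29.4 in KO and 17.3 and 15.0 in EE_KO. KO was again above every other library. The log2 difference was 0.74 for KO minus WT, and the gene fell by 0.83 (SE 0.13, limma adjusted p = 4.48e-04) from KO to EE_KO. Gm26917 (ENSMUSG00000097971, chromosome 17) was at 86.0 and 73.7 in WT, 54.5 and 71.6 in KO and 85.4 and 59.9 in EE_KO. The KO and EE_KO libraries overlapped, and the log2 difference of EE_KO minus KO was 0.19 (SE 0.20, limma adjusted p = 0.383). That sign turned under several settings, with -0.21 under TPM scaling, -0.0024 without the first KO library and -0.061 without the first EE_KO library. Gm26917 ends 11 bases from the ribosomal RNA gene CT010467.1, which was at 57.9 and 65.7 FPKM in WT, 98.5 and 111 in KO and 108 and 59.2 in EE_KO. Between the libraries of a group, the 2 genes went the same way in KO and in EE_KO and opposite ways in WT. Both KO libraries lay above both WT libraries for CT010467.1 and below them for Gm26917. The part of ribosomal RNA in the level of Gm26917 was not tested.

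A further pair was not called between KO and EE_KO although it was low in KO. Gm10076, a single-exon gene of chromosome 14, was at 79.1 and 55.1 FPKM in WT, 6.52 and 13.2 in KO and 11.7 and 23.5 in EE_KO. KO and EE_KO overlapped, and EE_KO minus KO was 0.77 (SE 0.38, limma adjusted p = 0.0857). The call was made without the second KO library (1.23) and without the first EE_KO library (1.25). Gt(ROSA)26Sor, the transcript of the Rosa26 locus, which is widely used as a site for transgenes, was at 14.4 and 13.7 in WT, 3.02 and 3.84 in KO and 2.26 and 9.07 in EE_KO. The EE_KO libraries lay on both sides of KO, and the difference was 0.38 (SE 0.44, limma adjusted p = 0.442). It was 1.19, and called, without the first EE_KO library and -0.44 without the second. The labels do not say where MAPSEE lies, and a part of it in the level of Gt(ROSA)26Sor was not tested.

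5 members, picked out after their values were seen, fell less than 4-fold but more than 2-fold in KO. They were Gm49794, Gm16973, Gt(ROSA)26Sor, Gm14167 and Gm12279, with log2 differences of KO minus WT of -1.37, -1.52, -1.77, -1.81 and -1.93. Gm49794, the longest of the 200 at 13039 bases of exon, was at 12.7 and 15.8 FPKM in WT, 3.90 and 6.07 in KO and 11.0 and 13.7 in EE_KO. All but Gt(ROSA)26Sor were called higher in EE_KO than in KO. Among the 200 highest genes of these types by KO mean, 27 were members.

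**Figure D3:**
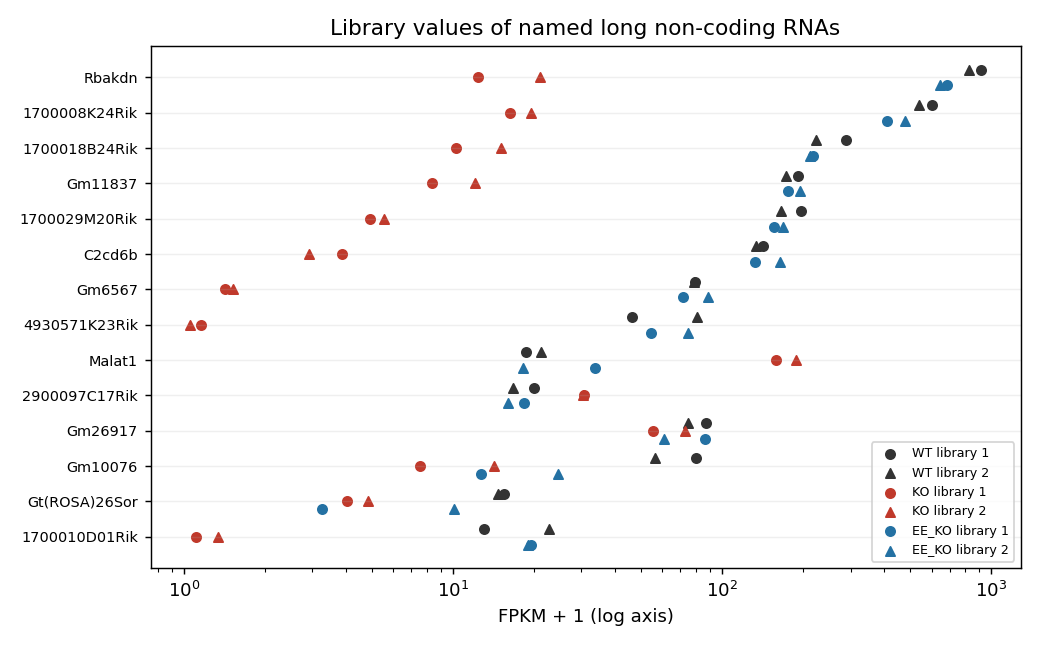
FPKM + 1 (log axis) in each library for 14 named genes; black is WT, red KO and blue EE_KO, circles library 1 and triangles library 2. KO stands far to the left for the first 8 genes, to the right for Malat1 (158 and 187 FPKM) and 2900097C17Rik, overlaps EE_KO for Gm26917, Gm10076 and Gt(ROSA)26Sor, and is again to the left for 1700010D01Rik.

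EE_KO came close to WT for most of the set, with a lean to lower values. The EE_KO mean was lower than the WT mean in 160 of the 200 genes and above it in 40, and the median EE_KO mean was 86.0% of WT. Genes picked for high WT values can lean this way by the choice itself. Of the 200, 134 were at 80% or more. The median log2 difference of EE_KO minus WT was -0.21, and it was -0.087 without the first WT library and -0.32 without the second. 6 members were at least 2-fold lower in EE_KO and none was 2-fold higher, beside 0.377% and 0.195% of all genes. They were Gm10076, 4930558F17Rik, 1700021F13Rik, 1700101I19Rik, 1700101O22Rik and Gt(ROSA)26Sor. 4930558F17Rik (chromosome 5) was at 42.1 and 17.2 FPKM in WT, 0 and 0 in KO and 5.995 and 9.78 in EE_KO. 1700021F13Rik (chromosome 5) was at 25.2 and 24.8, 0 and 0, and 15.5 and 9.01. In both, EE_KO lay below both WT libraries and above KO. 1700101I19Rik was at 23.7 and 17.8 in WT and 5.36 and 11.3 in EE_KO, and 1700101O22Rik at 12.9 and 15.4 and at 5.64 and 7.10.

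The 2 WT libraries were not alike. Library 1 was the higher in 165 of the 200 genes, and the median ratio of library 2 to library 1 was 0.867. In 8 genes library 2 was at least 1.5 times library 1, and in 8 the reverse held. The first 8 were 4930571K23Rik, 1700013D24Rik, Smkr-ps, Wbscr25, 1700010D01Rik, 1700041C23Rik, 1700016P04Rik and Gm14145, named after their values were seen. The 8 of the reverse were Gm13817, 4930558F17Rik, Gm12974, Gm12763, 1700026D11Rik, 4930509G22Rik, 4930437M23Rik and 1700015C15Rik. Wbscr25 had 12.8 and 25.7 FPKM in the WT libraries, and 1700013D24Rik had 18.7 and 35.6. The summed level of 10 spermatid markers was 2055 and 3689 FPKM in the same libraries, 25.1 and 27.0 in KO and 2409 and 3415 in EE_KO. Of these markers, Tekt1 and Zpbp2 were higher in WT library 1. Of the first 8 genes, 4930571K23Rik, Wbscr25 and 1700016P04Rik were higher in EE_KO library 2, as the sum was. The others, 1700013D24Rik, Smkr-ps, 1700010D01Rik, 1700041C23Rik and Gm14145, were higher in EE_KO library 1. The part of spermatids in these levels was not tested. Leaving out all 16 such genes kept 179 of the remaining ones called higher in EE_KO than in KO, a setting added after the data were seen.

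The set was almost wholly autosomal. Members lay on 18 autosomes and the X, with 16 each on chromosomes 5 and 10 and 15 each on chromosomes 4, 6 and 7. As a share of the genes of these types listed, chromosome 19 had the highest at 4.26% (4 of 94) and chromosome 4 followed at 3.91% (15 of 384). The X had 1 of 141 and the Y none of 550. Chromosome 18 had none of 87. The median log2 difference of KO minus WT by autosome ran from -4.35 on chromosome 16 to -3.07 on chromosome 17. The X-linked member 1700010D01Rik (ENSMUSG00000071721, rank 159) was at 11.98 and 21.6 FPKM in WT, 0.110 and 0.341 in KO and 18.5 and 18.1 in EE_KO. KO stood apart, with 1 and 3 reads, and the gene rose by 3.98 (SE 0.25, limma adjusted p = 2.50e-06) from KO to EE_KO. Over the 10 other X-linked genes of these types that were tested, limma called 4 higher and 6 lower in KO than in WT, beside 38% and 48.1% of all genes.

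26 members formed divergent pairs with a protein-coding gene, their start sites at most 1000 bases apart, with a median gap of 111 bases. The member was the more abundant in WT in 17 pairs. Of the 26 partners 25 were tested, and limma called 15 lower, 6 higher and 4 neither in KO against WT, beside 48.1% of all genes lower and 38% higher. These counts move with the scaling. Deposited FPKM put the median of all genes at -0.29, TPM scaling at 0.087, and the partner counts became 12 lower and 10 higher under TPM and 12 and 11 under quantile normalization. The member median of KO minus WT over the pairs was -3.38 and the partner median -0.71. Both genes of a pair had the same sign in 16 pairs and opposite signs in 10, and 14 partners were within 2-fold. The change of the member was the greater in 24 of 26 pairs, and Pom121l12 and Eno3 changed more than their members. Members were ranked by WT level and partners were not. The higher level and greater fall of the members can follow from that choice, and nothing is read from them. Between KO and EE_KO the medians were 3.32 and 0.68, and limma called 13 partners higher and 5 lower, or 12 and 11 under quantile normalization, beside 47.8% and 37.8% of all genes.

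Gm13267 starts 78 bases from Sec61a2, a subunit of the channel that takes proteins into the endoplasmic reticulum, and part of its window is shown above. Gm13267 was at 54.1 and 43.2 FPKM in WT, 1.15 and 0.791 in KO and 40.5 and 36.4 in EE_KO. Sec61a2 was at 10.2 and 9.65, 11.2 and 11.2, and 9.38 and 9.98. The member was lowest in KO by far, while the partner's difference of EE_KO minus KO was -0.19 (SE 0.12, limma adjusted p = 0.146). 1110006O24Rik starts 92 bases from Rab35, a small GTPase of endosome recycling, and was at 47.3 and 38.6 FPKM in WT, 3.04 and 4.57 in KO and 47.2 and 48.3 in EE_KO. Rab35 was at 7.93 and 8.22, 19.1 and 19.7, and 9.01 and 9.60, so that KO was the highest group for the partner and the lowest for the member. From KO to EE_KO the member rose by 3.36 (SE 0.17, limma adjusted p = 9.34e-07) and Rab35 fell by 0.99 (SE 0.11, limma adjusted p = 6.34e-05). 4921522P10Rik, 559 bases from Efnb2, a membrane ligand of Eph receptors, was at 16.4 and 14.6, 0.0265 and 0.137, and 17.4 and 19.1. Efnb2 was at 0.552 and 0.704, 5.99 and 4.73, and 1.07 and 0.624, again highest in KO, and fell by 1.79 (SE 0.18, limma adjusted p = 3.50e-05) from KO to EE_KO. Rab35 and Efnb2 kept these signs under every scaling tried.

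The other 6 pairs named for the abundance of their members had the lowest mean of both genes in KO, as did further pairs not named here. 1700104B16Rik starts 14 bases from Gtf2e2, a subunit of the general transcription factor TFIIE, and had WT, KO and EE_KO means of 67.1, 2.59 and 85.4 FPKM. Gtf2e2 had 89.9, 19.4 and 89.7, and it rose by 2.15 (SE 0.12, limma adjusted p = 1.53e-06) from KO to EE_KO. Gm26799, 91 bases from the ubiquitin ligase gene Rad18, had means of 49.8, 1.31 and 46.2 FPKM, and Rad18 had 18.7, 5.30 and 19.1. Gm12319, 709 bases from the muscle enolase gene Eno3, was a pair of like size, with 75.5, 18.7 and 65.0 FPKM beside 77.5, 14.7 and 71.3. 4933433G15Rik had 50.01, 3.64 and 53.9 beside 72.8, 44.0 and 71.6 for Mapk6, which encodes the kinase ERK3. Med9os had 82.7, 2.16 and 74.2 beside 50.3, 36.7 and 45.6 for Med9, a Mediator subunit, whose difference of 0.32 for EE_KO minus KO had a limma adjusted p of 0.0611 and turned to -0.080 under TPM scaling. 4930455B14Rik had 36.6, 1.04 and 31.7 beside 6.08, 0.983 and 6.59 for 4930452B06Rik. H2afx went the other way from its member in KO. Gm48853 starts 308 bases from H2afx, the histone variant whose phosphorylated form marks the sex body, and was picked out after its values were seen. H2afx was at 41.9 and 45.3 FPKM in WT, 57.0 and 63.8 in KO and 55.7 and 45.7 in EE_KO, where Gm48853 had means of 17.7, 1.05 and 13.5.

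**Figure D4:**
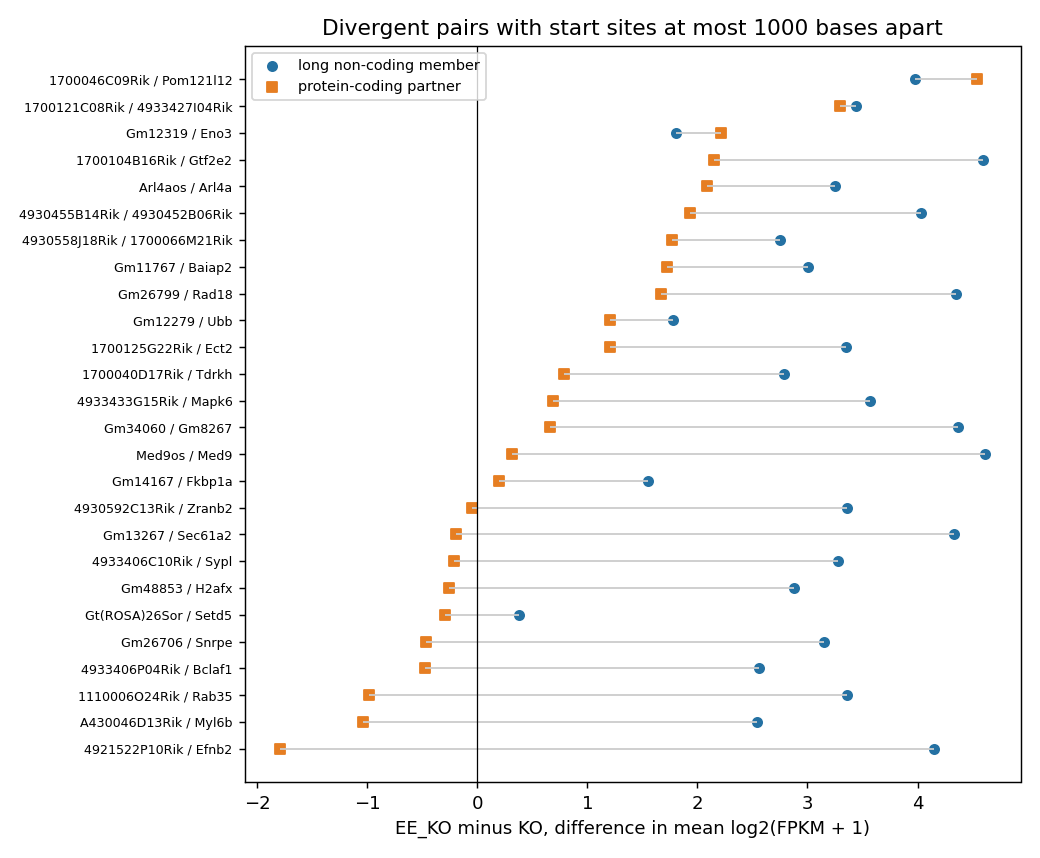
Difference in mean log2(FPKM + 1) of EE_KO minus KO for the long non-coding member (blue circles) and the protein-coding partner (orange squares) of the 26 divergent pairs, ordered by the partner. The members have a median of 3.32 and all lie above 0, whereas the partners run from -1.79 (Efnb2) to 4.54 (Pom121l12) with a median of 0.68.

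64 members overlapped a protein-coding gene on the other strand. The labels do not give the strand of the reads, so where exons overlap, reads of the 2 genes cannot be told apart; 61 members shared exon bases with another gene, 42 of them antisense. The members overlapped 53 tested coding genes in all, and limma called 34 of these lower and 13 higher in KO than in WT. Among all genes 48.1% were called lower and 38% higher. The counts became 32 and 15 under TPM scaling and 31 and 15 under quantile normalization. The median of the 53 was -1.28 on the deposited scale, against -0.29 for all genes. 1700108J01Rik and Clybl, which share no exon bases, went opposite ways. 1700108J01Rik was at 165 and 146 FPKM in WT, 3.57 and 3.09 in KO and 96.0 and 81.3 in EE_KO. Clybl, a mitochondrial lyase gene, had means of 1.004, 9.18 and 0.515 FPKM, and its log2 difference of EE_KO minus KO was -2.75 (limma adjusted p = 1.35e-06). 1700019G24Rik and Dync1i1, a dynein chain gene, also differed in sign, with Dync1i1 at means of 2.48, 17.1 and 2.17. 1700108N11Rik and Ovol2, a transcription factor gene with exons in common with it, fell together in KO, with Ovol2 at 66.2, 1.20 and 58.5. These 3 coding genes were picked out after their values were seen.

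Members also lay beside each other. 5 pairs of members were within 10 kb, which took in 10 of the 200. 1700100I10Rik and Gm31072 on chromosome 14 point away from each other, and had WT means of 39.5 and 102 FPKM, KO means of 1.94 and 2.70 and EE_KO means of 33.6 and 79.2. 4930535E02Rik and Gm35584 on chromosome 3, of which the window of Gm35584 is shown above, point away from each other too, and had 18.1 and 23.9 in WT, 0.347 and 0.356 in KO and 12.2 and 15.97 in EE_KO. 4930458A03Rik and 4930432H08Rik on chromosome 5 end towards each other, with 27.4 and 18.7, 1.03 and 0.575, and 27.1 and 17.5. Gm11767 and Gm11766 on chromosome 11 overlap, with 24.4 and 14.5, 1.43 and 0.508, and 18.6 and 10.8. In all 4 pairs both members were lowest in KO.

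For the lists of genes that act on such transcripts, the counts stand beside 47.8% higher and 37.8% lower in EE_KO among all genes. Of 14 regulators of pachytene transcription, all tested, limma called 10 higher and 4 lower in EE_KO than in KO (or 9 and 4 under the other scalings), with a median of 2.71 against 0.26 for all genes. Mybl1, which encodes A-MYB and was picked out for the motif above, was at 30.1 and 22.6 FPKM in WT, 10.3 and 8.94 in KO and 28.6 and 33.5 in EE_KO, and it rose by 1.59 (SE 0.16, limma adjusted p = 3.14e-05). KO was the lowest group for Mybl1, without overlap. Rfx2, an activator of ciliary and spermatid genes, was at 96.2 and 88.9, 3.66 and 4.42, and 97.2 and 96.4. Rfx4, a factor of the same family, and Tcfl5, a helix-loop-helix factor of the testis, rose by 4.12 and 3.87. Taf7l, a germ cell form of a TFIID subunit, was one of those that fell and was picked out after its values were seen, with means of 37.6 FPKM in KO and 5.60 in EE_KO.

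Of 17 genes of the nuclear RNA exosome and its adaptors, 6 were called higher and 7 lower in EE_KO than in KO, or 4 and 9 under TPM scaling. The catalytic subunit Exosc10 had 48.8 and 46.8 FPKM in WT, 13.5 and 13.6 in KO and 48.5 and 55.3 in EE_KO, and rose by 1.86 (SE 0.11, limma adjusted p = 1.76e-06). Exosc5, of the core, rose by 1.28, and Pabpn1, a nuclear poly(A)-binding protein that links RNAs to the exosome, fell by 2.14 (SE 0.14, limma adjusted p = 3.64e-06). Of 8 paraspeckle proteins, 3 were called higher and 4 lower, or 2 and 5 under quantile normalization. Nono, which with Sfpq forms the core of paraspeckles and is X-linked, was at 1.99 and 2.37, 27.2 and 24.3, and 3.36 and 1.74, highest in KO. It fell by 2.95 (SE 0.22, limma adjusted p = 5.96e-06), Sfpq fell by 0.90 and Rbm14 rose by 1.04. Of 14 subunits of Integrator, a complex that cleaves nascent RNA, 5 were called higher and 5 lower, or 5 and 7 under TPM scaling. Ints10 and Ints13 rose by 2.69 and 1.72, and Ints3 fell by 1.97. The shares called in these last 3 lists lie near those of all genes, and nothing is read from them.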

How the data were processed

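RNA of 6 libraries of STA-PUT purified pachytene cells (WT, KO and EE_KO, 2 each) was measured. The deposited values are FPKM per gene, made by the authors, per the file headers; the labels' protocols name total RNA and a SMARTER mRNA-seq kit. GRCm38 and mm10 are named in the submitters' processing notes; no source used here gives the aligner, counter or strand. Of the 54532 genes, 54495 had an entry in GENCODE M21, the source of types, positions and exons.

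533 short RNA genes and lower entries of repeated symbols were left out. Values were taken as log2(FPKM + 1), and 15368 genes with a mean of at least 1 FPKM were fitted over all 6 libraries with limma 3.58.1 (R 4.3.3), using a mean-variance trend and no replicate block. Benjamini-Hochberg adjusted p below 0.05 was called. Per library, 96.8 to 97.0% of values times exon length came out as whole reads (tolerance 0.01), and voom on those reads called 6464 genes higher and 6671 lower in EE_KO than in KO. Figures were made with matplotlib 3.10.9.

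Alternatives were other pseudocounts, filters, scalings, a replicate block, other choices of members and leaving out each library. The genes named were the 10 highest, those beside the rank limit, those with the greatest changes, those that resisted or were not called, X-linked members, known long non-coding RNAs, the most abundant divergent pairs, neighbouring members, and up to 3 genes of each other list by smallest p in EE_KO against KO; exceptions are said where they stand. The members and lists were chosen with earlier results of these data known.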

Additional observations from a re-analysis of the deposited data

How the results depend on the processing

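The count of members called higher in EE_KO than in KO ranged from 195 to 197 over the settings that left out 1 library, and was 195 with the replicate block, where 2 were called lower, as without it; shared replicate numbers pair no libraries in the labels, and 2 per group are too few to check it. Over all genes, the block called 7316 higher and 5789 lower. A mean of at least 5 FPKM left 4725 genes called higher and 2930 lower, and no filter gave 8940 lower, as fewer or more genes were tested. The 100 most abundant genes, fewer by construction, gave 98 higher and 0 lower in limma, 99 at least 2-fold lower in KO than in WT, 1 that resisted, 3 past 2-fold in EE_KO against WT, and medians of -4.48 (KO against WT) and 4.23 (EE_KO against KO). Members without shared exon bases gave 1 lower and a median of -4.05. Members ranked by EE_KO gave 6 that resisted.

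The median of KO against WT was -5.12 and -4.53 with pseudocounts of 0.1 and 0.5, -4.48 under TPM scaling, -3.45 under quantile normalization and -4.90 by voom, and -4.03 to -3.85 without 1 library. That of EE_KO against KO was 4.86, 4.17, 4.16, 3.25 and 4.67 in the same order. That of EE_KO against WT was -0.32 to -0.087 without 1 library. Gm26917 turned in sign between KO and EE_KO, with -0.21 under TPM scaling, -0.47 under quantile normalization, -0.17 by voom, -0.0024 without KO library 1 and -0.061 without EE_KO library 1, against 0.44, the same sign as the main value, without EE_KO library 2; Gt(ROSA)26Sor was 1.19 without EE_KO library 1 and -0.44 without EE_KO library 2. The cause was not tested. The other 159 values of the main comparisons and 773 of single genes kept their direction and side of the threshold or, for counts, stayed within 1.5 times. In KO, 73 and 74 members had under 10 reads, so the size of their folds is imprecise.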

Other observations

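The KO libraries had their own abundant long non-coding RNAs, most of which were not among the 200. After Malat1 and Gm26917, the highest by KO mean were Gm35533 on chromosome 10 and Tslrn1 on the X. Gm35533 was at 6.03 and 9.40 FPKM in WT, 68.3 and 55.1 in KO and 6.88 and 5.44 in EE_KO. Tslrn1 was at 4.68 and 4.76, 42.8 and 52.4, and 5.44 and 2.58, and 1810058I24Rik on chromosome 6 at 8.34 and 6.93, 33.4 and 36.5, and 8.44 and 7.08. In these 3 genes both KO libraries lay above the other 4. Snhg6, a host gene of a small nucleolar RNA, was at 4.86 and 4.67 in WT, 17.5 and 14.8 in KO and 4.95 and 2.51 in EE_KO, and Tug1 was at 8.56 and 7.89, 14.8 and 14.4, and 8.03 and 6.83. The summed Sertoli, Leydig and spermatogonial markers were also highest in KO, though Gfra1 alone was not, and their part in these levels was not tested. On the X, Gm15104 and 1700003E24Rik, outside the 200 at ranks 272 and 278, had WT means of 10.3 and 9.89 FPKM, KO means of 0.202 and 0.148 and EE_KO means of 12.4 and 15.4, as low in KO as the X-linked member. These genes were picked out after their values were seen.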
